A study of Mus musculus with 4 samples.

Results

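Long stretches of the mouse autosomes hold no protein-coding gene, and 3340 peaks of the linker histone variant H1t lay in them. A peak was taken as a desert peak when its centre lay more than 500 kb from the body of every protein-coding gene of GENCODE vM21 on chromosomes 1 to 19. These were 3340 of the 48366 autosomal peaks (6.91%, 95% Wilson interval 6.68 to 7.14) and of the 48681 peaks listed in all. They were set against the other 45026 autosomal peaks, of which 19214 were centred inside protein-coding genes and 25812 between genes within 500 kb of one. H1t ChIP was sequenced in 2 libraries made with an anti-H1t antibody, and input chromatin in 2 libraries with no antibody, all from testes of C57BL6 mice at postnatal day 20. The labels call the cells pachytene, whereas their source is given as testicular cells and no purification is described, and the data hold no expression values by which the cell type could be checked. The ChIP libraries were pooled and called as broad peaks against the pooled inputs by the authors at an unadjusted p of 0.05, from 39221290 ChIP and 30377916 input fragments left after filtering. No spread between replicates could therefore be given. The intervals cover counting error only, and since peaks cluster they are too narrow.

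Linker histones bind where DNA enters and leaves the nucleosome and help to compact chromatin. H1t is a testis-specific member of the family that is made in spermatocytes. Gene deserts are the AT-rich, late-replicating stretches of mammalian chromosomes, often hold many copies of retrotransposons, and commonly lie beside genes of neural adhesion and of development, some of whose distant enhancers lie in them.

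The sequences at the centres of desert peaks with a high fold over input differed in kind. Those of 4 such peaks are shown as the 201 bases around the peak centre on the + strand of GRCm38.p6, with unmasked bases in capitals and bases masked as repeats in lower case. The first lay in the desert between Bcl11a and 5730522E02Rik (chr11:25100233-25100433) and was almost wholly unmasked at its centre. The second lay between Nxph1 and Ndufa4 (chr6:10186959-10187159) and mixed masked and unmasked stretches. The centre near Ralyl (chr3:12253285-12253485) was wholly masked, and that near Intu (chr3:40002652-40002852) held no masked base. Masking does not measure copy number, and the central 31 bases near Ralyl had only 2 copies in the autosomes.
Bcl11a to 5730522E02Rik: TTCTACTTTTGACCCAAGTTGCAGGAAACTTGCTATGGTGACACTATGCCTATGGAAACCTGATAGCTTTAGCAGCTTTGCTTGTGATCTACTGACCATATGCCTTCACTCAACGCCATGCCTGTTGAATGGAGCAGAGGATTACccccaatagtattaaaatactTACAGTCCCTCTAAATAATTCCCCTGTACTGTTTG
Nxph1 to Ndufa4: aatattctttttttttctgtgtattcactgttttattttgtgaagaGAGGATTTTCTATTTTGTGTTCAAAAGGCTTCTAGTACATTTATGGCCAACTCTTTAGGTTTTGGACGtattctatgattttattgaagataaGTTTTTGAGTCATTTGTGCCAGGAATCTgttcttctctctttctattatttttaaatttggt
Ralyl: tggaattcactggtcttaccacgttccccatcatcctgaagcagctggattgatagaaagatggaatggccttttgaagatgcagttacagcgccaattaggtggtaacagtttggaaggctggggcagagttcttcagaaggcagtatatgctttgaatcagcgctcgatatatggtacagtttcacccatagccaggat
Intu: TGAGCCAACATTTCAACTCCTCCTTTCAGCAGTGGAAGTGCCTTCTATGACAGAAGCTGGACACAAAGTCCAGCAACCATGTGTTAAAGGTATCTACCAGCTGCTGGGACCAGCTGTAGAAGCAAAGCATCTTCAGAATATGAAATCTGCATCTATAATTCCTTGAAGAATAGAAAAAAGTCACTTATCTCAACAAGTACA

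Some stretches recurred from desert to desert. Of the words of 31 bases shared by several desert peaks, 8 were taken, each in turn for the most desert peaks that it added, and they occurred in 198 of the 3340 (5.93%). The example copies of 4 of these words are shown with 30 bases on each side, the shared word in capitals, on the + strand of GRCm38.p6 at chr1:124559338-124559428, chr1:35426829-35426919, chr10:65952607-65952697 and chr1:49296899-49296989.
Family 1: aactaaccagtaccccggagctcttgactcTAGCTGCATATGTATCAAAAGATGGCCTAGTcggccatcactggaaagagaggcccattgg
Family 2: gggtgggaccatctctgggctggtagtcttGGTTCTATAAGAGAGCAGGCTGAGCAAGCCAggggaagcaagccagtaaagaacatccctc
Family 7: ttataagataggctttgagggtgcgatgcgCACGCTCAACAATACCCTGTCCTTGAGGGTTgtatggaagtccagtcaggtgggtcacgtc
Family 8: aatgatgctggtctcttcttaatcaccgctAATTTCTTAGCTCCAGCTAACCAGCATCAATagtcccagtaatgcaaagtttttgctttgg
The word of family 1 was found in 38 desert peaks on 17 autosomes and that of family 2 in 32 on 16. Family 7 was found in 20 desert peaks, 99.8% masked over their whole length, and family 8 in 22, 94.4% masked. Each word stands for a dispersed repeat, which was not assigned to a class here. The words were chosen for their number of desert peaks, which by itself raises the desert values, so all of these are descriptions with no test. Family 1 had 4036 copies in desert territory of 26479 in the autosomes, or 15.2% of its copies, and was found in 38 desert and 184 other autosomal peaks. The word of family 8 had 9.36% of its 1688 copies in deserts and was found in 22 desert and 66 other autosomal peaks. The word of family 8 thus gave 139 peaks per 1000 copies in deserts and 43.1 per 1000 copies elsewhere, whereas the word of family 1 gave 9.42 and 8.20. The median fold of the peaks with a family word ran from 1.68 to 1.77 over the 8 families, close to the 1.72 of all desert peaks. The cutoff of the peak caller bounds these medians from below, so their closeness is partly fixed by it.

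H1t peaks were sparser in deserts than elsewhere. The deserts made up 202 Mb of ungapped sequence, or 8.43% of the ungapped autosomes, and held 16.5 peaks per Mb (95% exact Poisson interval 16.0 to 17.1). The other autosomal territory held 20.5 per Mb (20.3 to 20.7), so that the density in deserts was 0.806 times that elsewhere (exact conditional Poisson interval 0.777 to 0.834). Against the territory between genes within 500 kb alone the ratio was 0.771 (0.743 to 0.799), and against the bodies of protein-coding genes 0.852 (0.821 to 0.884). Peaks covered 1.14% of desert sequence and 1.56% of the other autosomal sequence. The peak caller never set the ChIP pileup against less than a genome-wide background. At that background stood 2580 of the 3340 desert peaks and 35097 of the 45026 others. The part of this lower bound in the sparser calls of deserts was not tested.

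Between genes the density decreased from band to band with distance. It was 22.05 peaks per Mb up to 50 kb from a gene, 21.5 from 50 to 250 kb and 19.6 from 250 to 500 kb. Within the deserts it was 16.8 per Mb (16.1 to 17.5) from 500 kb to 1 Mb and 15.9 (14.9 to 16.9) beyond 1 Mb, intervals that overlap. Inside genes it was 19.4, close to that of the band from 250 to 500 kb. The peaks next to the limit had folds within the usual range. The 3 just inside lay 500365 to 500646 bp from Nrg3, Pcdh7 and Nr2f1 with folds of 1.80 to 1.83. Just outside, a peak 499955 bp from Cbln4 had a fold of 1.90 and one 499987 bp from Sox2 had 1.96.

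**Figure D1:**
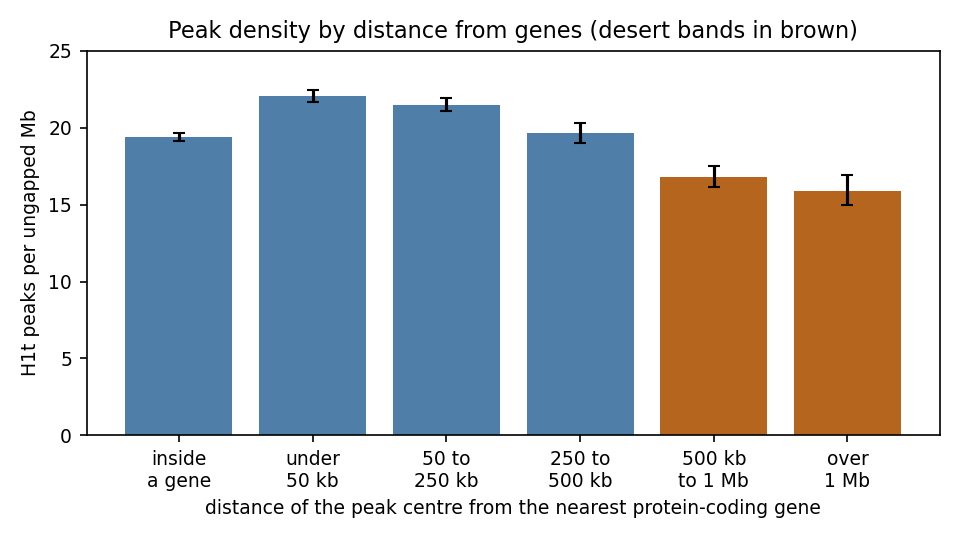
Peaks per ungapped Mb (y) by distance of the peak centre from the nearest protein-coding gene (x); error bars are 95% exact Poisson intervals and the 2 desert bands are brown. Both desert bands, at 16.8 and 15.9 per Mb, lie below every band nearer to genes.

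The lower density was seen on most autosomes. The ratio of desert to other density was under 1 on 17 of the 19, with the whole interval under 1 on 11 and above 1 on 0. It was lowest on chromosome 17, with 13.4 peaks per Mb in deserts and 20.9 elsewhere (ratio 0.642, 0.519 to 0.787), followed by chromosome 7 with 15.7 and 24.2 (0.651, 0.528 to 0.793). The exceptions were chromosomes 9 (ratio 1.05, 0.853 to 1.28) and 19 (1.03, 0.695 to 1.47), whose intervals held 1, with 1.51 Mb of desert on chromosome 19. Chromosome 12 held the largest share of its peaks in deserts, 353 peaks or 14.7%, and chromosome 19 the smallest, 31 peaks or 2.67%.

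**Figure D2:**
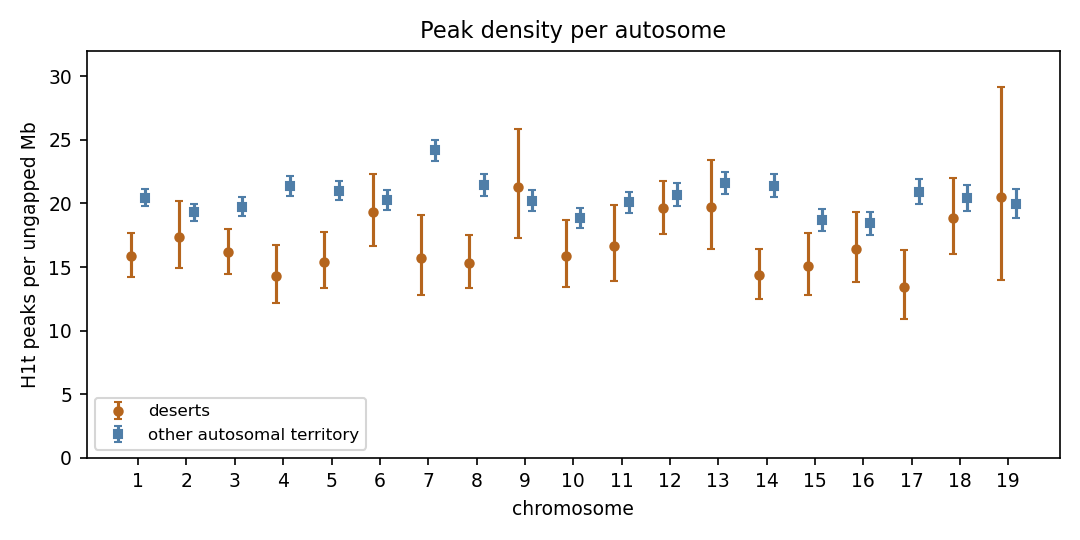
Peaks per ungapped Mb in deserts (brown circles) and in the other territory (blue squares) of each autosome, with 95% exact Poisson intervals. Deserts lie below the other territory on 17 of 19 autosomes, by most on chromosomes 17 and 7.

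Desert DNA is poor in G and C, and the density of H1t peaks moved with base composition in deserts and elsewhere alike. Of desert sequence 37.5% was G or C, against 42.3% of the other territory, and 87.0% of desert sequence lay in 10 kb windows of under 40% GC, against 33.0% elsewhere. In windows of 34 to 36% GC deserts held 12.8 peaks per Mb and the other territory 13.9, and in windows of 40 to 42% they held 21.3 and 21.5. Of the 7 bands of 2 points that held at least 1 Mb of desert, the ratio was under 1 in 5. These were the bands from 32 to 42% GC. In none of the 7 did the whole interval of the ratio lie under 1. In the band from 42 to 44% it lay above 1 (ratio 1.31, 1.12 to 1.53). Deserts there held 31.2 peaks per Mb, from 5.32 Mb of desert, and the other territory 23.8. Without Ywhaq to Gm10330, the densest desert of at least 1 Mb, the ratio was 1.29 (1.09 to 1.51). Shorter dense deserts were not left out, among them 5730507C01Rik to Gm21863 with 50.1 peaks per Mb at 45.1% GC over 0.419 Mb. When the other territory was weighted to the GC of the deserts, a comparison chosen after seeing the data, the ratio was 0.965 (0.933 to 0.999). When it was weighted to both the GC and the masked share, the ratio was 0.970 and its interval, 0.937 to 1.003, held 1. Weighted to the masked share alone it was 0.798 (0.771 to 0.825). With only centres whose 31 bases occur once in the autosomes, per Mb of territory of that kind, it was 0.793 (0.761 to 0.826).

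**Figure D3:**
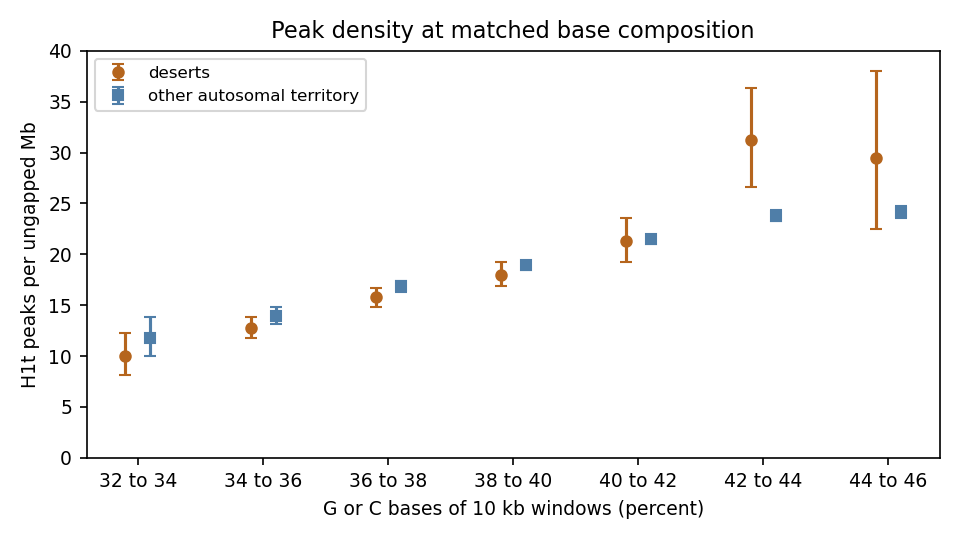
Peaks per ungapped Mb (y) in 10 kb windows grouped by their GC (x), for deserts (brown circles) and the other territory (blue squares), with 95% exact Poisson intervals. Density is higher in GC-richer windows in both, up to 42 to 44% in deserts, and deserts and other windows of 34 to 42% GC lie close together.

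The desert peaks were themselves richer in G and C than the deserts around them and richer in repeats. Of the bases under desert peaks 41.1% were G or C, against 37.5% of desert territory, and for the other autosomal peaks the values were 43.7% and 42.3% of their territory. The difference of peaks from territory was thus wider in deserts. CpG dinucleotides numbered 0.665 per 100 bases under desert peaks, against 0.504 in desert territory, whereas the other peaks had 0.865 and their territory 0.883. No CpG at all was present in 376 desert peaks (11.3%), against 6.04% of the other peaks (difference 5.22 points, Newcombe interval 4.17 to 6.36).

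Masked bases, which mark repeats in the reference, made up 47.3% of the bases under desert peaks and 42.4% of desert territory. The other autosomal peaks and their territory had 32.4% and 32.7%. By distance, the share under peaks was below that of the territory in every band up to 500 kb, and was 38.2% against 38.3% from 250 to 500 kb. From 500 kb to 1 Mb it was 45.2% under peaks against 41.5%, and beyond 1 Mb 52.0% against 44.2%. Peaks masked over at least 90% of their length numbered 587 in deserts (17.6%), against 8.01% of the other autosomal peaks (difference 9.56 points, 8.28 to 10.9) and 10.5% of those between genes within 500 kb (difference 7.06 points, 5.75 to 8.43). Desert peaks with no masked base numbered 121 (3.62%), against 7.68% of the others (difference −4.06 points, −4.69 to −3.33).

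**Figure D4:**
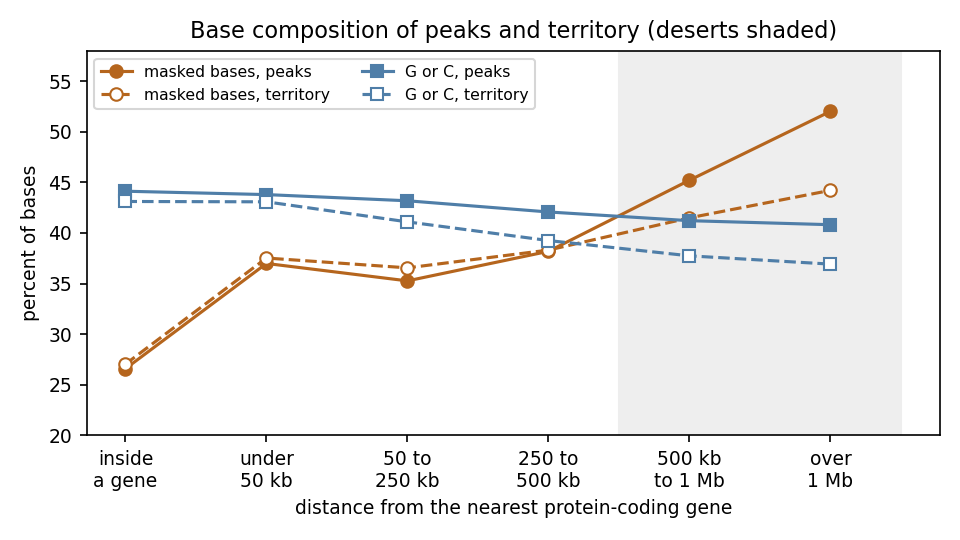
Percent of bases masked as repeats (brown) and of G or C bases (blue), in peaks (filled, solid) and in all territory (open, dashed), by distance from the nearest protein-coding gene; deserts are shaded. In deserts the masked share of peaks, 45.2% and 52.0%, lies above that of the territory, while nearer to genes both nearly coincide.

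Where a read falls in a repeat its place is less certain, and this differed too. The 31 bases at the centre of a desert peak occurred once in the autosomes for 2511 peaks (75.2%), against 81.3% of the other peaks (difference −6.11 points, −7.65 to −4.63), and for 79.6% of points on a 5 kb grid of desert territory, against 84.7% of grid points elsewhere. They occurred over 100 times for 353 desert peaks (10.6%), against 5.82% of the other peaks. The local background of a peak is what the peak caller set the ChIP pileup against, the larger of a genome-wide value and one from the input around the peak, and it was worked back from pileup and fold. Peaks at a raised local background, over 2% above the genome-wide 4.95 fragments, were the more masked ones. In deserts these 760 peaks were 66.1% masked, and the 2580 at the genome-wide background were 41.3% masked, slightly below the 42.4% of desert territory. The part of the input in the high masked share of the desert peaks was not tested. Among all peaks at the genome-wide background, those in deserts remained the more masked, with 41.3% against 28.7% elsewhere.

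Among listed peaks, the enrichment of desert peaks was close to that of the autosomal peaks in general. The fold is the pileup plus 1 over the local background plus 1, as deposited. Its median was 1.72, against 1.73 for the other autosomal peaks, with 1.65 and 1.96 as percentiles 5 and 95 in both. The median pileup was 9.41 fragments in both. Fold and pileup are bounded from below by the cutoff of the peak caller in both groups. The closeness of these medians is therefore partly fixed by that cutoff, and they say little about enrichment below it. The median width was 622 bp in deserts and 655 bp elsewhere. A fold of at least 2 was reached by 121 desert peaks (3.62%, 3.04 to 4.31), against 3.58% of the other autosomal peaks and 3.64% of all listed peaks (difference from the others 0.0470 points, Newcombe interval −0.561 to 0.756). A p under 0.01 was reached by 350 (10.5%), against 11.8% of the others and 11.8% of all listed peaks, a difference of −1.28 points (−2.32 to −0.159). It was −2.11 points (−3.18 to −0.953) from the peaks between genes within 500 kb and −0.175 (−1.26 to 0.991) from those inside genes. A q under 0.05 was reached by 7 (0.210%), against 0.244% of the others and 0.255% of all listed peaks. A raised local background was found at 22.8% of desert peaks and 22.1% of the others (difference 0.703 points, −0.740 to 2.20), a difference that turned to −6.35 points (−10.96 to −1.28) among peaks with a p under 0.01.

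A pair of desert peaks stood far above the rest. The first, chr11:25100053-25100613, lay 502 kb from 5730522E02Rik with a fold of 10.9, a pileup of 132 fragments and a local background of 11.3. The second, chr6:10186383-10187736, lay 938 kb from Nxph1, which encodes a secreted ligand of the neurexins, with a fold of 9.44, a pileup of 309 fragments and a local background of 31.8. These 2 of the 3340 desert peaks had a fold of at least 3, a level reached by 22 of the 45026 other autosomal peaks, which is a similar share. The local background at both was above the genome-wide 4.95 fragments, and its part in the fold was not tested.

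Other peaks with a high fold are named by their nearest protein-coding gene, which by the rule lay over 500 kb away. The peak 526 kb from Nr2f1, an orphan nuclear receptor of neural development, had a fold of 2.67. Wholly masked peaks lay 1218 kb from Ralyl (2.62), which encodes an RNA-binding protein, and 872 kb from Pcdh7 (2.47), a protocadherin. The centre of the Pcdh7 peak was 31 bases with 424 copies in the autosomes. The peak 529 kb from Intu, a planar polarity gene needed for cilia, had a fold of 2.50 at the genome-wide background and a single-copy centre. Of 5 further peaks with folds of 2.36 to 2.45, a pair lay at the start of chromosome 16 before Olfr161, and the others near Stpg2, Slc4a3 and Dsc3. Of the 12 desert peaks with the highest fold 8 had a raised local background, 5 were wholly masked and 5 had a single-copy centre. All 7 desert peaks with a q under 0.05 had a raised local background, as had 93.6% of the 110 other autosomal peaks with such a q. Besides 5 of the 12 with the highest fold, they included a peak near N6amt1, which encodes a methyltransferase, with a fold of 2.25 and a local background of 25.5, inside the noncoding gene Gm32624, and one near Epha7, an ephrin receptor of axon guidance, with 2.17 and 111.

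The deserts were 251 stretches with ungapped sequence, of median length 503 kb, and 26 of them, 1.68 Mb in all, held no peak. The 71 of at least 1 Mb held 2124 of the desert peaks (63.6%). Their density ranged from 7.34 to 36.0 peaks per Mb with a median of 15.3. It was under the 20.5 of the other autosomal territory in 64 of the 71, with the whole interval under it in 25 and above it in 1.

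The longest deserts were mostly sparse. Tenm3 to Aga on chromosome 8, beside a teneurin of synapse formation, spanned 3.67 Mb and held 50 peaks (13.6 per Mb, 10.1 to 17.97). Between the protocadherin genes Pcdh20 and Pcdh9, 3.54 Mb held 37 (10.4 per Mb, 7.36 to 14.4), and from Olfm4 to Pcdh17, 3.42 Mb held 52 (15.2 per Mb, 11.4 to 19.9). Celf4 to Pik3c3, beside an RNA-binding protein of neurons, held the most peaks of any desert, 72 in 3.52 Mb (20.5 per Mb, 16.0 to 25.8). Dsel to Cntnap5a followed with 66 peaks in 2.82 Mb (23.4 per Mb, 18.1 to 29.8) and Igfbp7 to Adgrl3, beside a latrophilin, with 54 in 2.61 Mb (20.7 per Mb, 15.5 to 27.0). The intervals of Pcdh20 to Pcdh9 and of Dsel to Cntnap5a did not overlap. These 2 deserts were set side by side for their densities, so this is a description and not a test. The other named long or peak-rich deserts, Cntnap5b to Cdh20, Slc39a10 to Tmeff2, Sel1l to Flrt2, Zeb2 to Acvr2a and Hace1 to Grik2, held 37 to 47 peaks at 13.7 to 18.05 per Mb.

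The densest desert of at least 1 Mb was also the one richest in G and C. Ywhaq to Gm10330 on chromosome 12 held 49 peaks in 1.36 Mb (36.0 per Mb, 26.6 to 47.6) at 44.9% GC, and only 4.41% of its grid points were single-copy. The 3 deserts at the very start of a chromosome, 0.137 Mb in all, held 10 peaks. Among deserts of at least 1 Mb the next densest were Nxph1 to Ndufa4 (27.3 per Mb, 19.9 to 36.5; 37.3% GC), Cntn5 to Jrkl (24.7), Dsel to Cntnap5a and Adam6a to Zfp386 (23.3). The sparsest were Lingo2 to 1700009N14Rik with 11 peaks in 1.50 Mb (7.34 per Mb, 3.66 to 13.1), Pou3f2 to Mms22l (9.92), Pcdh7 to G6pd2 (10.1) and Pcdh20 to Pcdh9. All lay at 36.1 to 37.2% GC, around the median of 36.9% over the 71 deserts. Each had a neural gene on a flank, as had Nxph1 to Ndufa4 and Cntn5 to Jrkl among the densest. Over the 71 deserts GC and density had a Pearson r of 0.687 and a Spearman rho of 0.382, and r was 0.431 without the 2 deserts farthest from the median GC. For the masked share r was 0.112. These points share their libraries and chromosomes, and the correlations are descriptions.

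**Figure D5:**
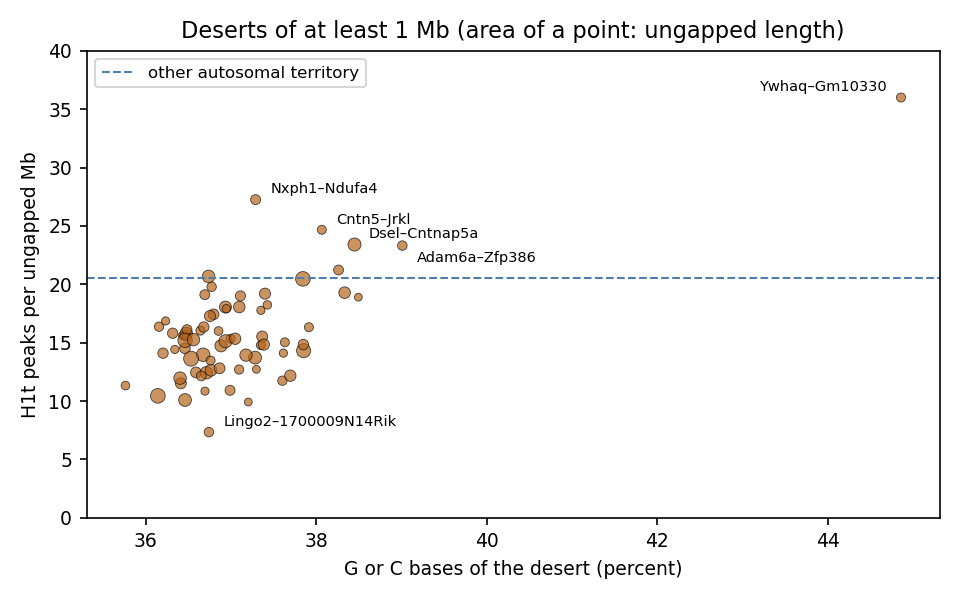
Peaks per ungapped Mb (y) against GC (x) of the 71 deserts of at least 1 Mb, with the area of a point set by the ungapped length; the dashed line is the 20.5 per Mb of the other autosomal territory. The desert from Ywhaq to Gm10330 stands alone at 44.9% GC and 36.0 per Mb, and 64 of the 71 lie under the line.

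The genes that flank deserts were taken by family, each desert peak counted with its nearest protein-coding gene. In all 389 genes were nearest to a desert peak, and the density over all deserts was 16.5 per Mb. Classical cadherins, which hold like cells together, were nearest to 178 desert peaks (15.6 per Mb, 13.4 to 18.1), led by Cdh9 with 35 and Cdh8 with 32. Protocadherins, the larger branch of that superfamily, were nearest to 153 (13.4 per Mb, 11.4 to 15.8), an interval under 16.5, led by Pcdh17 with 40, Pcdh7 with 37 and Pcdh9 with 31. Of the 9 families this was the only one whose interval did not hold the value over all deserts. With 9 families compared on intervals that are too narrow, a single miss carries little weight. The families were not matched in base composition.

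Leucine-rich repeat adhesion genes had 109 desert peaks (17.8 per Mb), among them Flrt2 with 32, Lrfn5 with 25 and Slitrk1, a synapse organiser, with 23. Immunoglobulin-type neural adhesion genes and their contactin-associated partners had 114 (17.6 per Mb), with Cntn5 at 29.9 per Mb (18.2 to 46.1) from 20 peaks, the highest among the named genes of that family. Developmental transcription factors had 57 (14.3 per Mb, 10.8 to 18.5), with 14 at Nr2f1 and 8 at Sall3.

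Glutamate and GABA receptor genes had 39 desert peaks (18.1 per Mb), 20 of them at Grik2, a kainate receptor, and potassium channel genes had 52 (15.3 per Mb), 15 of them at Kcnt2. Guidance genes had 141 (16.1 per Mb), which includes Slitrk genes that the match by the start of the symbol took in, and 99 (14.8 per Mb) without them, with 23 at Epha7 and 15 each at Efna5 and Slit2. Olfactory, vomeronasal, zinc finger and predicted genes, many of them in several copies, had 248 (17.4 per Mb, 15.3 to 19.7), with 27 at Gm10330 (39.7 per Mb, 26.2 to 57.8). The families covered the deserts about as their territory did, with 7.43% of desert peaks and 7.05% of desert territory for the last family and 4.58% and 5.63% for protocadherins.

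Some deserts hold genes of other kinds. Antigen receptor loci, whose segments are rearranged in lymphocytes and have gene types of their own in GENCODE, held 87 of the desert peaks. The immunoglobulin kappa locus held 43 desert peaks of 70 in all (22.1 per Mb, 17.2 to 27.9), the heavy chain locus 35 of 73 (26.5 per Mb, 20.8 to 33.3) and the T cell receptor alpha locus 9 of 37. The other 3 loci held 0 desert peaks, since protein-coding genes lie within 500 kb, and 3 to 14 peaks in all. The fold reached 2 in 2 of the 87, against 119 of the 3253 desert peaks outside (2.30% against 3.66%). The 2 widest desert peaks lay in the heavy chain locus, at chr12:114766996-114774693 (7698 bp, fold 1.85) and chr12:114760769-114765523 (4755 bp, fold 1.96). The next widest were chr3:3000560-3004549 (3990 bp) at the start of chromosome 3, chr1:112931624-112935399 (3776 bp), masked throughout, and chr6:60052626-60056385 (3760 bp), in the noncoding gene Gm5570. Without the receptor loci the density ratio was 0.803 (0.774 to 0.832).

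Among the noncoding genes of the deserts, with pseudogenes left out, lincRNA genes held most of the desert peaks. Of the desert peaks 223 (6.68%, 5.88 to 7.57) were centred in a gene that is neither protein-coding nor a pseudogene, 202 of them in a lincRNA and 5 in a receptor segment. The share was 8.66% for the other autosomal peaks (difference −1.99 points, −2.83 to −1.05) and 11.7% for those between genes within 500 kb. Such genes took up 6.31% of desert territory, and the density in them, 17.5 peaks per Mb (15.3 to 20.0), did not differ beyond its interval from the 16.5 outside (ratio 1.06, 0.924 to 1.22). Gm32647 on chromosome 7 held 12 desert peaks, Gm28928 on chromosome 1 held 11, A230057D06Rik and Gm28526 held 7 each and Gm13481 held 6. Of these 43 peaks, 2 reached a fold of 2, both in A230057D06Rik, against 3.62% of all desert peaks and 3.64% of all listed peaks. So small a count sets these genes apart in no way. When deserts began at 250 kb the difference turned round, to 0.743 points (0.0438 to 1.48).

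Runs of AC units were rarer in desert peaks than in the other autosomal peaks, and runs of AT units more frequent. An unbroken run of at least 20 bases of AC, AG, AT or CG units, read on both strands, was present in 219 desert peaks (6.56%, 5.77 to 7.45) and in 7.46% of the other autosomal peaks, a difference of −0.903 points whose interval, −1.73 to 0.0187, held 0. Without chromosome 2 it was −1.08 points (−1.92 to −0.145), and without chromosome 5, 6, 7, 8, 12 or 15 its interval also lay below 0. Windows of 622 bp on the grid of desert territory held such a run in 8.19%. The units differed. AC runs were present in 4.37% of desert peaks and 5.67% of the others (difference −1.30 points, −1.98 to −0.525), and in 5.22% of desert windows. AT runs were present in 0.599% of desert peaks and 0.335% of the others (difference 0.263 points, 0.0448 to 0.592), from 20 desert peaks, and in 1.67% of desert windows. AG runs were present in 2.40% and 2.24% (difference 0.159 points, −0.328 to 0.750), and a CG run in 1 desert peak.

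The longest run of each kind in the desert peak with the highest fold among those with such a run shows the motif, with the run in capitals and 40 bases on each side in lower case. They lay nearest to Zpld1 (chr16:53898831-53898960, fold 2.04), Aga (chr8:51570447-51570566, fold 1.99) and Fscb (chr12:63795944-63796061, fold 1.93), on the + strand of GRCm38.p6, where the AC run reads as TG.
AC run of 50 bases: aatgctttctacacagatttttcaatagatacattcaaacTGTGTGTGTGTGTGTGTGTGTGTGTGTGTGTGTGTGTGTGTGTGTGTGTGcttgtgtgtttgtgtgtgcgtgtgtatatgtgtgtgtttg
AG run of 40 bases: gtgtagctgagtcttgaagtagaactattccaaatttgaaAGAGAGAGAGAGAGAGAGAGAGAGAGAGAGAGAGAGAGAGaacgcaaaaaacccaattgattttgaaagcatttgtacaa
AT run of 38 bases: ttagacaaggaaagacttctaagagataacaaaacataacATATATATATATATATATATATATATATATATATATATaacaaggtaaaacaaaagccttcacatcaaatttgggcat
A fold of at least 2 was reached by 3 of the 146 desert peaks with an AC run, against 57 of the 2554 other autosomal peaks with one, and by 0 of the 80 with an AG run, against 24 of 1007. It was reached by 0 of the 20 desert peaks with an AT run, against 4 of 151. These counts are small, and their differences were not tested.

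Desert peaks lay farther from their nearest neighbour than the other peaks did. The gap to the nearest other autosomal peak had a median of 20.1 kb (quartiles 8.45 and 41.8) in deserts and 15.9 kb (6.24 and 32.6) elsewhere. A neighbour within 3 kb was present for 308 desert peaks (9.22%, 8.29 to 10.3) and for 12.8% (12.5 to 13.1) of the others. With peaks merged within 3 kb, the density ratio was 0.827 (0.798 to 0.858).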

How the data were processed

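H1t ChIP-seq and input libraries were compared in peak space only. The deposited list was made by the authors with MACS2 2.1.2 in broad mode, on paired-end fragments that per the methods were checked with FastQC 0.11.5 and aligned with Bowtie2 to GRCm38.p5. Both ChIP libraries (51192421 fragments, 39221290 after filtering) were pooled against both inputs (55300487, 30377916 after filtering), at a mean fragment size of 241 bp and with an unadjusted p cutoff of 0.05. The deposited pileup is a signal in fragments. The deposited fold is the authors' ratio of the pileup plus 1 to the local background plus 1, as MACS2 gives it. The deposited p-value and q-value are given by the authors as −log10. The length of each peak was also used. The file header states that q was not computed, yet the column holds values, which were used as deposited. No column of per-sample values was left out (0).

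Distances were taken from peak centres to gene bodies of GENCODE vM21, and sequence, gaps and lower-case masking from GRCm38.p6, whose chromosomes have the coordinates of GRCm38.p5. Repeat classes were not used here. Copies of 31-base words were counted on both strands of the autosomes, at peak centres and on a 5 kb grid. Words of few distinct triplets were not taken as shared words. Windows of 10 kb were grouped by GC in bands of 2 points and by masked share in bands of 10 points. Wilson, Newcombe and exact Poisson intervals at 95% were computed with Python 3.11.15, numpy 2.4.6, pandas 2.3.3, scipy 1.17.1 and numba 0.67.0, and the scripts were tested on simulated data. Peaks are not replicates, so no p was computed.

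The peaks named were the 12 with the highest fold and the 5 widest; the deserts named were the 10 longest, the 10 with the most peaks and the 5 densest and 5 sparsest of at least 1 Mb. The 5 noncoding genes with the most desert peaks and up to 4 flanking genes of each family were also taken by rule. The peaks near N6amt1 and Epha7 and Gm32624 were named after their values were seen. Some items that these rules pick are not reported here. The members and the gene lists were chosen with earlier results of these data known. Alternatives were other distances, stricter calls, merging, trimmed chromosome ends, each autosome left out, and, chosen after seeing the data, matching on composition and copies and leaving out antigen receptor loci.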

Additional observations from a re-analysis of the deposited data

How the results depend on the processing

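No paired analysis was possible because ChIP and input libraries, which share replicate numbers, were pooled before peaks were called, and for the same reason no library could be left out. Of 245 alternative values over the 8 quantities, 199 kept their direction and call or size. Many of these values leave out a single autosome and keep most of the peaks, so their agreement says little. For the masked and GC shares, size was judged against a Wilson interval that counts peaks, although the shares are of bases. The count is thus a description and not a measure of robustness. The share of autosomal peaks in deserts was 14.9% with deserts over 250 kb, 2.11% over 1 Mb, 5.28% over 100 kb from every annotated gene, 6.20% for p under 0.01, 5.98% for q under 0.05 and 7.17% without chromosome ends, and 6.50% (without chromosome 12) to 7.199% (without chromosome 7) with one autosome left out. The density ratio was 0.691 for q under 0.05, from 7 desert peaks, and 0.970 when matched in GC and masked share, both with intervals that held 1, and 0.791 to 0.816 with one autosome left out. The masked share of desert peaks was 42.3% over 250 kb, 52.0% over 1 Mb, 42.1% by every annotated gene, 52.5% for p under 0.01, 51.8% for fold of at least 2, 64.5% for q under 0.05, 41.3% at the genome-wide background and 46.9 to 48.0% with one autosome left out. Their GC was 42.8% for p under 0.01, 43.02% for fold of at least 2 and 41.0 to 41.1% with one autosome left out.

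As differences of desert minus other autosomal peaks in percentage points, the share with a fold of at least 2 was −0.266 by every annotated gene and −0.116 to 0.212 with one autosome left out, so that its sign was not stable. Without one of 6 autosomes it fell below 0: −0.0913 without chromosome 3, −0.0534 without 9, −0.116 without 11, −0.0158 without 13, −0.0742 without 16 and −0.0387 without 18. The share at a raised background was −0.414 over 250 kb, −0.771 by every annotated gene, −1.76 for fold of at least 2 and 0.222 to 1.26 with one autosome left out. It was −6.35 (−10.96 to −1.28) for p under 0.01 and 1.80 (0.305 to 3.35) with peaks merged, intervals that excluded 0 in opposite directions, whereas that of all peaks held 0. The share with a dinucleotide run was −1.04 over 250 kb, −2.70 for p under 0.01, −1.57 merged and −1.12 without chromosome ends, each with its whole interval below 0, and −1.08 (without chromosome 2) to −0.631 (without chromosome 1) with one autosome left out. Without chromosome 2, 5, 6, 7, 8, 12 or 15, each left out alone, its whole interval was also below 0. The share in a noncoding gene was 0.743 over 250 kb, −4.43 for fold of at least 2 and −2.99 for q under 0.05, the last 2 with intervals that held 0, and −2.63 to −1.63 with one autosome left out. By every annotated gene it is 0 by construction and was not computed. The causes were not tested. With pooled libraries, differences between libraries are not covered by any interval, and peaks near the caller's cutoff are a large part of the list.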
